A study of Homo sapiens with 12 samples.

Results

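Plates coated with the Notch ligand Jagged1 were compared with plates coated with Fc, both without DAPT, in DAOY cells, an established human medulloblastoma line. The comparison rested on 6 of the 12 RNA-seq libraries of the study: 3 from Jagged1 plates and 3 from Fc plates, 1 of each from wild-type (WT) cells, from NOTCH1KO cells and from NOTCH2KO cells, all grown with DMSO, the solvent of DAPT. Each Jagged1 library was therefore set against the Fc library of its own genotype. The knockout lines had been made with CRISPR/Cas9 and each was 1 line, and the sources used here do not say whether a line grew from a single cell. The other 6 libraries came from the same lines and plates with 12 h of DAPT, an inhibitor of γ-secretase, and served to estimate the spread and to show the plate difference under the inhibitor. Of 63677 gene identifiers, 17621 had a mean level of at least 1 TPM (transcript abundance scaled for gene length and library) over the 12 libraries and were tested.

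Notch receptors are cut when a ligand on a neighbouring surface pulls on them. An ADAM protease makes the first cut and γ-secretase the last, which frees the intracellular domain to join the DNA-binding protein RBPJ and the coactivators of the MAML family. The best known direct targets are the HES and HEY genes, which encode transcriptional repressors, together with feedback genes such as NRARP and, in some cells, the receptor NOTCH3 and the ligand JAG1. The study asked whether this pathway raises EPAS1, which encodes HIF2α, 1 of the oxygen-regulated HIF subunits. Medulloblastoma is a tumour of the cerebellum in which Notch signalling has been studied for its effect on growth and stem-like cells.

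The targeted genes were read first. NOTCH1 stood at 3.32 and 3.57 TPM in WT cells on Fc and on Jagged1, at 0.874 and 0.488 TPM in NOTCH1KO cells and at 4.13 and 3.36 TPM in NOTCH2KO cells. NOTCH2 stood at 74.9 and 78.1 TPM in WT cells, at 106.7 and 87.2 TPM in NOTCH1KO cells and at 48.05 and 60.5 TPM in NOTCH2KO cells. Each gene was lowest in the line in which it had been targeted, on both plates, although NOTCH2 kept more than 40 TPM there, and RNA level does not show whether protein is made. The 6 libraries held an estimated 18.3 to 21.2 M reads, and between 17064 and 17790 genes reached 1 TPM. Of 30 neural progenitor and neuronal markers, 15 reached 1 TPM in each of the 6 libraries, among them PAX6, SOX11, ZIC2 and TUBB3, while DCX was listed at 0 and ATOH1, NEUROD1 and RBFOX3 stayed under 1 TPM. Of 17 blood and endothelial markers, 12 stayed under 1 TPM in all 6, with PTPRC and PECAM1 listed at 0. TIE1, TEK, CD68 and LCP1 reached 1 TPM in each of the 6, TIE1 at 19.5 to 41.5 TPM. Of 14 glial markers, 10 stayed under 1 TPM in all 6, with S100B listed at 0, while CSPG4 and SLC1A3 reached 1 TPM in each. The 12 fibroblast markers summed to between 1217 and 1795 TPM per library, against 138.9 to 230.4 TPM for the 30 neural markers. The 16 epithelial markers summed to between 708.5 and 1061 TPM. In the fibroblast list COL1A1 stood at 507.7 to 881 TPM and COL1A2 at 285.9 to 531.9 TPM, but DCN at 0 to 1.54 TPM.

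At an adjusted p under 0.05 (limma with Benjamini-Hochberg adjustment over all genes), 2 of 17621 genes were called higher on Jagged1, 0.0114%, and 0 were called lower, 0%. At an unadjusted p under 0.05, 1171 genes stood higher, 6.65%, and 730 lower, 4.14%. Their total of 1901 was 1096 without the WT library on Jagged1, 1212 without the WT library on Fc and 583 without the pairing by genotype. Both called genes, NPIPA2 and NPIPA3, belong to a family of near-identical copies and are described last. The next lowest adjusted p was 0.146. Every gene described before that point was therefore below the threshold, and its values are given as measured levels. Each genotype gave 1 library per plate. The test therefore set the mean plate difference against the departures from additive genotype and culture terms over the 12 libraries. It did not measure the variation between independent cultures. An exact permutation test of 3 libraries against 3 that ignores the pairing cannot go below p = 0.1, and 1 that keeps the pairs has a higher floor.

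**Figure D1:**
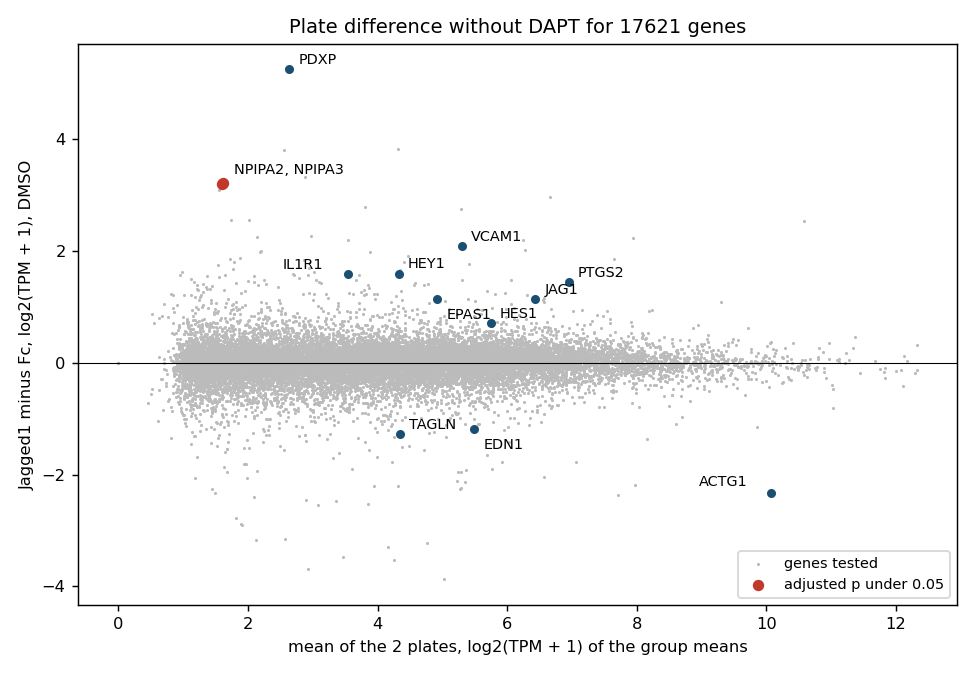
The mean level of each of the 17621 genes over both plates without DAPT, on the log2(TPM + 1) scale (horizontal axis), is plotted against the mean difference of Jagged1 minus Fc on the same scale (vertical axis). Red points are the 2 genes with an adjusted p under 0.05, blue points are named examples and grey points are all other genes, and the median difference over all genes was 0.02.

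The HES and HEY genes stood higher on Jagged1 in each genotype for 4 of the 5 members tested. Across all genes tested, 20.1% were higher in all 3 genotypes and 16.6% were lower in all 3. The bulk libraries cannot tell more RNA per cell from more cells with that RNA. HEY1, a repressor and Notch target, went from 11.5 to 56.6 TPM in WT cells, from 7.85 to 31.5 TPM in NOTCH1KO cells and from 11.04 to 18.3 TPM in NOTCH2KO cells. The 3 Jagged1 libraries lay above the 3 Fc libraries without overlap, as they did for 4.77% of all genes, and the mean difference was 1.59 ± 0.395 on the log2(TPM + 1) scale (SE, adjusted p = 0.271 by limma).

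HES1, the founding vertebrate member of the family, went from 47.0 to 83.5 TPM in WT cells, from 35.5 to 55.0 TPM in NOTCH1KO cells and from 40.2 to 65.3 TPM in NOTCH2KO cells. Its groups did not overlap, and its 3 differences were the most even of the family, with a mean of 0.71 ± 0.121 (SE, adjusted p = 0.22 by limma). HEY2 went from 2.61 to 6.40 TPM in WT cells, from 2.86 to 7.84 TPM in NOTCH1KO cells and from 1.31 to 2.24 TPM in NOTCH2KO cells. The NOTCH2KO library on Jagged1 was below the WT library on Fc, so the HEY2 groups overlapped, and the mean difference was 0.91 ± 0.221 (SE, adjusted p = 0.271). HES4 went from 2.35 to 4.62 TPM in WT cells and from 1.60 to 2.50 TPM in NOTCH2KO cells. In NOTCH1KO cells it was listed at 0 on Fc and at 2.53 TPM on Jagged1, and its groups did not overlap. HES6, which is not a direct Notch target in most tissues, stood at 3.48 and 1.41 TPM in WT cells, 2.46 and 3.55 TPM in NOTCH1KO cells and 3.81 and 2.08 TPM in NOTCH2KO cells, with no common direction.

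**Figure D2:**
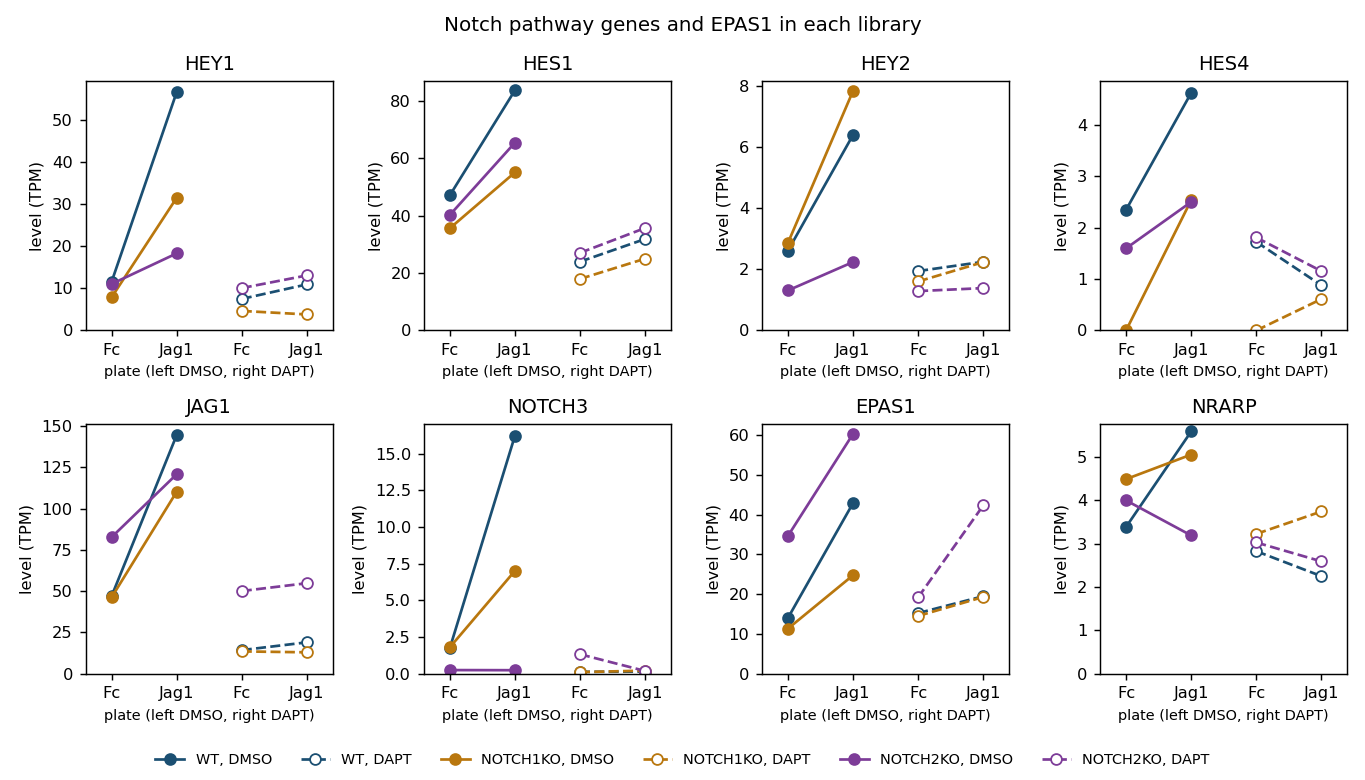
Levels in TPM (vertical axes, from 0) of 8 Notch pathway genes and targets on Fc and Jagged1 plates are shown for each of the 12 libraries. Lines join the libraries of 1 genotype, with filled points and solid lines for DMSO and open points with dashed lines for DAPT, and HEY1, HES1, HEY2, HES4, JAG1 and EPAS1 climb from Fc to Jagged1 in each genotype in DMSO.

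The promoter windows of HES1, HES4 and HEY2 are printed here because they carry the letters that RBPJ is known to bind, and because these genes stood higher in every genotype. The 3 were chosen after their values and matches were seen. HES6, the fourth HES or HEY gene tested that had a window, held no match, and neither did JAG1, NOTCH3, NRARP, EPAS1, VCAM1 or PTGS2. IL1R1 had several windows, and 1 of them held a match. HEY1 had no window and could not be read. Each window runs from 250 bases before to 50 bases after the transcription start, on the strand of the gene, from RefSeq on GRCh38.p14, with every TGGGAA or its reverse complement TTCCCA in capitals. The windows lie at chr3:194135898-194136197 on the plus strand (HES1), chr1:1000048-1000347 on the minus strand (HES4) and chr6:125749382-125749681 on the plus strand (HEY2).
HES1: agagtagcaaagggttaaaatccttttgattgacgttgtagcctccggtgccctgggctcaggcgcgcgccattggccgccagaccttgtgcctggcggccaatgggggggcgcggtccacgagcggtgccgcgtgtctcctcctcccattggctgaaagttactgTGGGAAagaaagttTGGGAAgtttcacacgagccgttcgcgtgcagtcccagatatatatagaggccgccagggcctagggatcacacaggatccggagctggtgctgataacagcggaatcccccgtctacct
HES4: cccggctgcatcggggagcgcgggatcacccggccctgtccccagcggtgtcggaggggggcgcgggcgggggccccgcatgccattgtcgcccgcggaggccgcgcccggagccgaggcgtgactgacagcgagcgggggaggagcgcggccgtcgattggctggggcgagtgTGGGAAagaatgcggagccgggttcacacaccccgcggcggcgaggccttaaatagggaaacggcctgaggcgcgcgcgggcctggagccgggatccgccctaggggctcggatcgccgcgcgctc
HEY2: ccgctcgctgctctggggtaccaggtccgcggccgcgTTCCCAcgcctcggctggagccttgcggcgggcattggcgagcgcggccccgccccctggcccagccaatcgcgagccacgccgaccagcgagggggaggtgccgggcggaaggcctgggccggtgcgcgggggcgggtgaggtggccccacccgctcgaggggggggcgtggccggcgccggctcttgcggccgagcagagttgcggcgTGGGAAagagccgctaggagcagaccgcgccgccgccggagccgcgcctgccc
The core letters occurred at 2 places in the HES1 window, 1 in the HES4 window and 2 in the HEY2 window. Counted from the transcription start, the HES1 matches began at positions -84 and -70, the HES4 match at -76, and the HEY2 matches at -213 and -3. The longer form GTGGGAA, or TTCCCAC, was present in all 3. Of 35116 promoter windows in the table, 24.0% held the core and 6.25% the longer form, on either strand. The E-box CACGTG, which HES and HEY proteins can bind, was in none of the 3 windows and in 7.26% of all windows. Of 46 genes that stood higher in every genotype by at least 1 on the log2 scale and had a window, 13 held the core, or 28.3%, against 27.95% of the 9907 tested genes with a window, so the letters were about as frequent among them.

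Among the receptors, NOTCH3 differed most between lines. It went from 1.72 to 16.2 TPM in WT cells and from 1.79 to 7.0 TPM in NOTCH1KO cells, and stood at 0.246 and 0.237 TPM in NOTCH2KO cells. The mean difference was 1.39 ± 0.765 (SE, adjusted p = 0.522 by limma). It was 0.57 without the WT library on Jagged1 and 2.46 without the NOTCH2KO library on Jagged1, so that single libraries set its size. NOTCH4 stayed under 1 TPM in all 6. NOTCH1 and NOTCH2 differed by -0.16 and 0.03 on the log2(TPM + 1) scale.

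The ligand JAG1 went from 46.9 to 144.5 TPM in WT cells, from 46.2 to 110.2 TPM in NOTCH1KO cells and from 82.6 to 120.8 TPM in NOTCH2KO cells. Its groups did not overlap, and the mean difference was 1.13 ± 0.363 (SE, adjusted p = 0.37 by limma). The ligand on the plate was protein, so these reads came from the cells. A second entry named JAG1, inside the first on the same strand, stood between 0.435 and 1.87 TPM and was not higher in any genotype. JAG2 was lower in each, from 1.39 to 0.758 TPM in WT cells, from 0.318 to 0.104 TPM in NOTCH1KO cells and from 3.92 to 2.175 TPM in NOTCH2KO cells. DLL1, DLL3, DNER and MFAP2 differed by at most 0.16 on the log2 scale, and DLL4, the main ligand of vessel sprouts, stayed under 1 TPM. Of the 7 ligand entries tested, 1 was higher and 2 were lower in every genotype.

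Feedback genes and other known targets were mixed: 9 of 30 tested were higher in every genotype and 5 were lower, with a median difference of 0.06. PDGFRB, a receptor tyrosine kinase of mural cells and fibroblasts, went from 10.8 to 73.3 TPM in WT cells, from 25.7 to 66.0 TPM in NOTCH1KO cells and from 6.26 to 7.34 TPM in NOTCH2KO cells, with a mean difference of 1.40 ± 0.505 (SE, adjusted p = 0.41 by limma). MSX2, a homeobox factor, was more even, going from 33.3 to 52.1, from 33.4 to 54.3 and from 30.2 to 40.5 TPM in the same order, with no overlap between the plates. NRARP, which limits Notch activity and is read in many studies as a marker of it, went from 3.38 to 5.58 TPM in WT cells and from 4.49 to 5.05 TPM in NOTCH1KO cells but stood at 3.99 TPM on Fc and 3.19 TPM on Jagged1 in NOTCH2KO cells. Its mean difference was 0.16, with a 95% interval from -0.26 to 0.57, and it was -0.05 without the WT library on Jagged1. DTX1 went from 1.94 to 3.73, from 0.742 to 1.97 and from 2.40 to 2.50 TPM. ID3, MYC, CCND1 and SOX9 differed by 0.16, -0.12, -0.07 and -0.01 on the log2 scale.

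In the machinery that makes or reads the signal, 8 of 34 genes were higher in every genotype and 5 were lower, near the shares over all genes. The fringe enzymes, which add sugars to Notch and alter its choice of ligand, were lower. MFNG went from 4.53 to 1.67 TPM in WT cells, from 2.42 to 1.06 TPM in NOTCH1KO cells and from 7.31 to 4.01 TPM in NOTCH2KO cells, a mean difference of -0.84 ± 0.165 (SE, adjusted p = 0.22 by limma). LFNG went from 12.9 to 5.77, from 18.2 to 9.79 and from 22.9 to 18.1 TPM, and RFNG was lower in each genotype, with a mean difference of -0.33. ADAM10, the protease of the first cut, went from 75.6 to 108.6, from 79.6 to 91.7 and from 104.0 to 152.7 TPM, while RBPJ differed by -0.01. RFNG and RBPJ were named after their values were seen.

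EPAS1, at positions 46520806 to 46613836 of chromosome 2 in the deposited GRCh37 tables, went from 13.99 to 42.9 TPM in WT cells, from 11.3 to 24.8 TPM in NOTCH1KO cells and from 34.6 to 60.3 TPM in NOTCH2KO cells. It was higher on Jagged1 in each genotype, and the groups overlapped because NOTCH2KO cells on Fc exceeded NOTCH1KO cells on Jagged1. The mean difference was 1.13 ± 0.224 (SE, 95% interval 0.62 to 1.64, adjusted p = 0.22 by limma). On the log2(coverage + 1) scale it was 0.40, where the deposited coverage of EPAS1 ran from 0.291 to 1.56 in the 6 libraries, near the added 1. HIF1A, which encodes HIF1α, went from 266.2 to 399.2, from 215.3 to 237.2 and from 289.3 to 355.4 TPM, a mean difference of 0.34 ± 0.113 (SE, adjusted p = 0.385) that was 0.22 without the WT library on Jagged1. VEGFA, a vessel growth factor that hypoxia induces, went from 157.5 to 194.6, from 61.5 to 89.5 and from 111.1 to 132.2 TPM. Of the 11 tested genes that the study linked to HIF2α or Notch, 6 were higher in every genotype, and the list was written with earlier results of these data known, so this is no independent evidence of direction. TGFB2 and STUB1 of that list differed by 0.13 and -0.13.

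Hypoxia-induced genes did not share a direction, with 13 of 40 higher in every genotype, 13 lower and a median of -0.09. TMEM45A went from 58.0 to 156.6 TPM in WT cells, from 29.9 to 57.3 TPM in NOTCH1KO cells and from 44.2 to 48.4 TPM in NOTCH2KO cells. DDIT4, an inhibitor of mTOR signalling, went from 59.5 to 81.2, from 4.58 to 14.4 and from 17.4 to 20.2 TPM. ENO2, a glycolytic enzyme, was lower, going from 58.2 to 37.1, from 63.2 to 37.5 and from 68.0 to 48.9 TPM, and the vasoconstrictor gene EDN1, described below, was lower too.

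NF-κB targets and cytokines held the largest share of members higher in every genotype among the lists with more than 5 genes tested. Of 28 members, 20 were higher in every genotype and 0 were lower, against 20.1% and 16.6% of all genes. Their median difference was 0.43 against 0.02 over all genes. None passed the test (limma). At an unadjusted p under 0.05, 11 of the 28 were higher and 0 lower, against 6.65% and 4.14% of all genes. The list was written with earlier results of these data known. The median was 0.56 in WT cells, 0.57 in NOTCH1KO cells and 0.16 in NOTCH2KO cells. VCAM1, an adhesion molecule of activated endothelium that also binds leukocytes, went from 28.04 to 203.7 TPM in WT cells, from 13.2 to 77.4 TPM in NOTCH1KO cells and from 3.92 to 8.43 TPM in NOTCH2KO cells. Its mean difference of 2.07 ± 0.519 (SE, adjusted p = 0.271 by limma) was the largest of the list.

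PTGS2, the inducible enzyme of prostaglandin synthesis, went from 58.7 to 234.4 TPM in WT cells, from 77.7 to 180.8 TPM in NOTCH1KO cells and from 86.9 to 189.8 TPM in NOTCH2KO cells. Its groups did not overlap, and the mean difference was 1.44 ± 0.228 (SE, adjusted p = 0.212). IL1R1, the receptor for interleukin 1, went from 4.99 to 28.2, from 5.07 to 19.1 and from 6.57 to 11.6 TPM in the same order, again without overlap, and its mean difference of 1.58 was 0.39 on the log2(coverage + 1) scale, where its coverage stayed under 1. CSF3, the granulocyte growth factor, went from 5.79 to 17.9, from 1.67 to 6.20 and from 7.93 to 14.2 TPM. The abundant cytokine genes differed less on the log2 scale, with mean differences of 0.62 for IL6, 0.62 for IL8 and 0.32 for CCL2, which encodes a monocyte attractant and reached 7464 TPM. These 3 and the genes in the rest of the paragraph were named after their values were seen. The inhibitor NFKBIA, the subunit RELB and the gene BIRC3 differed by -0.02, -0.10 and -0.03, so that these known NF-κB targets did not stand higher.

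**Figure D3:**
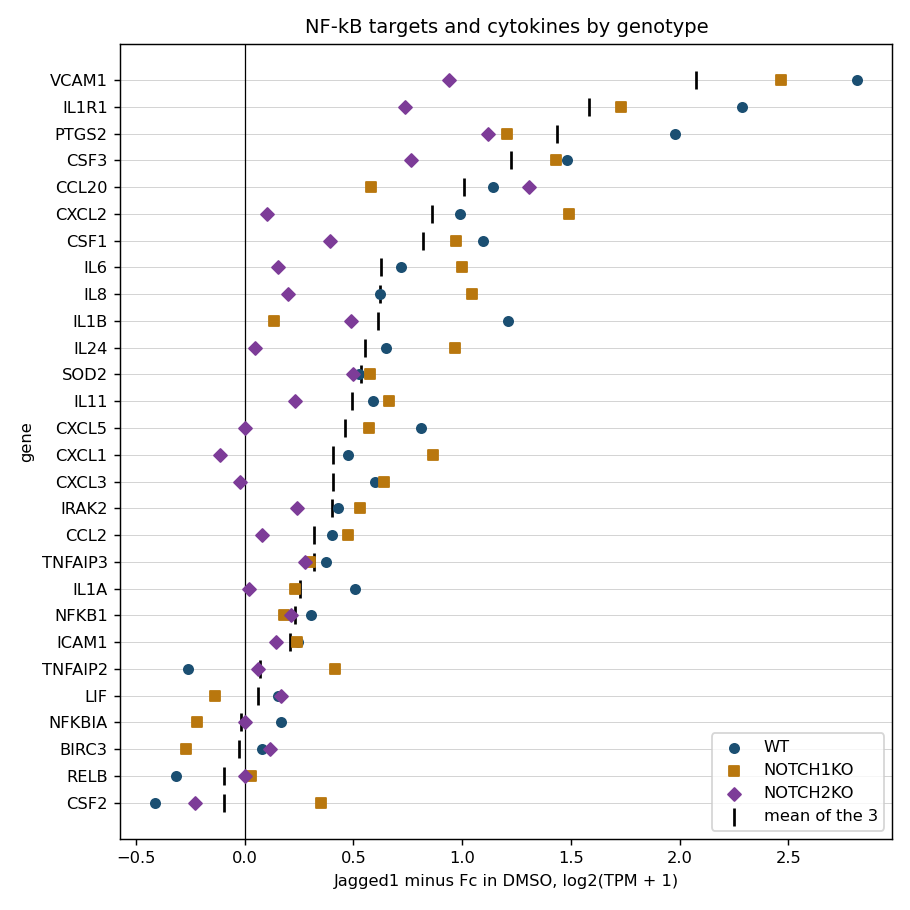
The difference of Jagged1 minus Fc in DMSO on the log2(TPM + 1) scale (horizontal axis) is shown for 28 NF-κB targets and cytokines (vertical axis) in WT, NOTCH1KO and NOTCH2KO cells, with a bar at their mean. Points for 20 genes lie right of 0 in all 3 genotypes, and for most of them the NOTCH2KO point is the leftmost.

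Other lists lay nearer to the shares over all genes. Interferon-stimulated genes were higher in every genotype for 17 of 38 members, lower for 4, with a small median of 0.14, and under DAPT the median was 0.17. Immediate-early and MAPK feedback genes were higher for 11 of 32 and lower for 6. DUSP6, a phosphatase that ERK signalling induces, went from 58.9 to 104.2, from 45.2 to 82.6 and from 56.5 to 87.7 TPM in WT, NOTCH1KO and NOTCH2KO cells, while JUN went from 83.7 to 44.7, from 53.6 to 31.7 and from 91.4 to 75.4 TPM. In the TGF-β and BMP list, 9 of 30 were higher and 6 lower. Its largest difference was TGFBR1, the type I receptor of TGF-β, which went from 43.4 to 117.4, from 22.3 to 74.7 and from 41.3 to 62.0 TPM, without overlap and with a mean of 1.23 ± 0.224 (SE, adjusted p = 0.22 by limma). Integrins were higher in every genotype for 6 of 17 and lower for 0, led by ITGA1, a collagen receptor subunit, at 8.09 to 15.6, 8.52 to 12.9 and 5.56 to 9.51 TPM.

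Among collagens and basement membrane genes, 10 of 31 were higher in every genotype and 8 lower. COL5A3 went from 9.58 to 39.4 TPM in WT cells and from 10.3 to 35.9 TPM in NOTCH1KO cells, and from 0.690 to 1.45 TPM in NOTCH2KO cells. COL3A1 went from 11.2 to 45.7, from 5.196 to 10.7 and from 4.83 to 4.90 TPM. COL16A1 was lower, from 41.3 to 23.8, from 25.6 to 8.18 and from 33.7 to 20.9 TPM. In the WNT list both non-canonical ligands stood apart in opposite directions: WNT5A went from 113.3 to 230.0, from 159.0 to 205.0 and from 95.2 to 171.2 TPM, and WNT5B from 20.1 to 10.3, from 18.0 to 8.44 and from 33.7 to 12.6 TPM. SOX2, a stem cell factor of the neural list, went from 4.25 to 11.4, from 2.94 to 5.54 and from 4.55 to 6.62 TPM. SHH pathway genes were higher for 4 of 11 and lower for 3, and no member differed by more than 0.42.

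Cell cycle genes were higher in every genotype for 4 of 44 and lower for 10, with a median of -0.04. Ribosomal protein genes were higher for 4 of 44 and lower for 12, with a median of -0.07, and under DAPT for 0 and 9. Cholesterol synthesis genes were higher for 6 of 25 and lower for 10, and mitochondrially encoded genes for 1 and 3 of 15. Fibroblast markers were higher for 5 of 11, among them PDGFRB and the proteoglycan gene LUM, and lower for 4, among them COL1A2. The 9 epithelial and 5 endothelial and blood markers tested held 0 higher and 5 and 3 lower. The summed level of the 16 epithelial markers ran from 760.9 to 853.3 TPM on Fc and from 708.5 to 1061 TPM on Jagged1, and that of the 17 endothelial and blood markers from 66.2 to 85.6 and from 44.7 to 65.6 TPM. CDH1, EPCAM, CDH5 and PTPRC stayed under 1 TPM in all 6 libraries. Other members were high, with KRT18 at 567.6 to 861 TPM, KRT8 at 113.2 to 152.7 TPM and TIE1 at 19.5 to 41.5 TPM. KRT18 and KRT8 thus made up most of the epithelial sum.

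**Figure D4:**
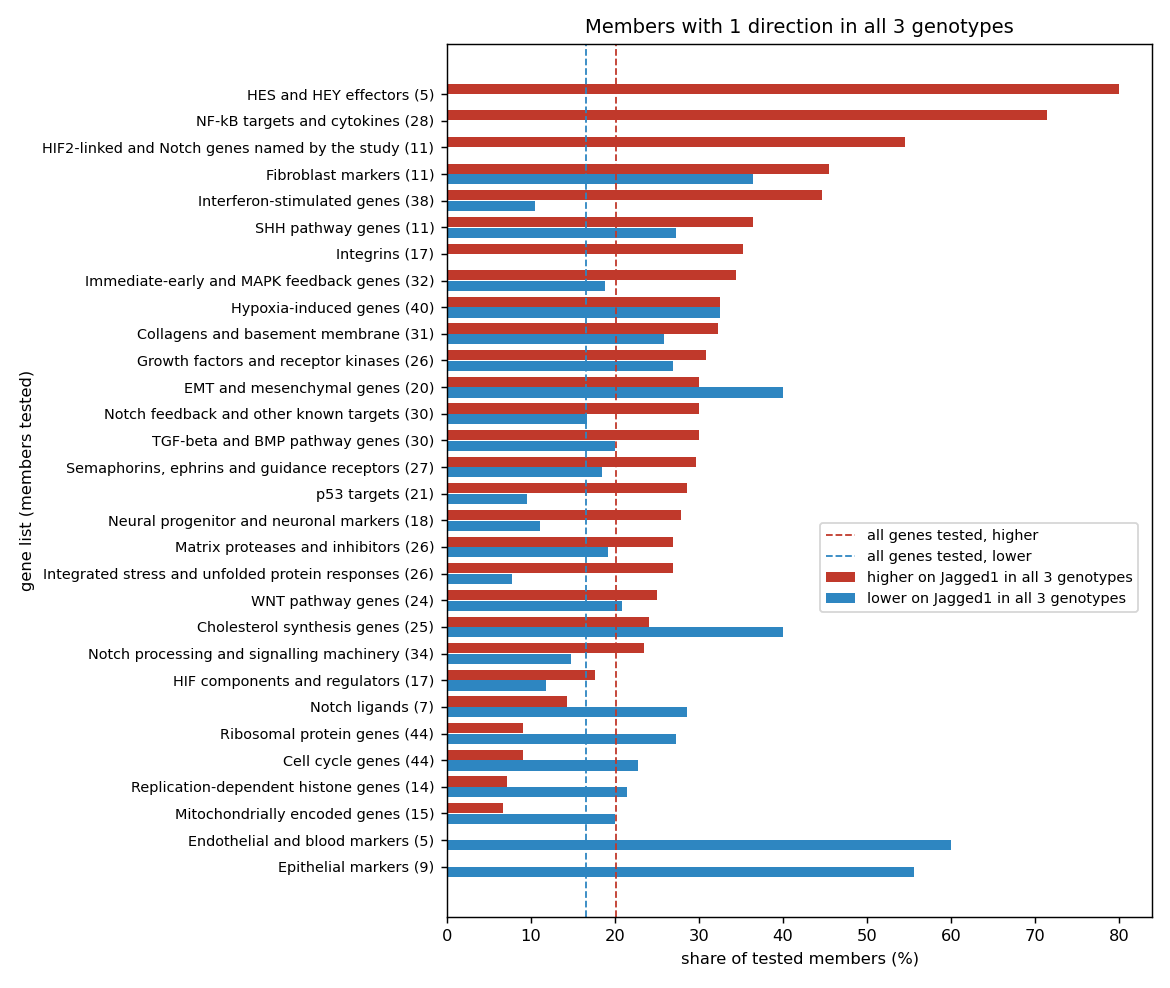
For each list with at least 5 members tested (number in brackets), red bars give the share of members higher on Jagged1 in all 3 genotypes and blue bars the share lower in all 3, in percent of tested members. Dashed lines mark the same shares over all genes, 20.1% and 16.6%, and the HES and HEY and the NF-κB lists reach furthest beyond the red line.

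Among EMT and mesenchymal genes, 6 of 20 were higher in every genotype and 8 were lower. TAGLN, an actin-binding protein of smooth muscle with the largest difference of that list, went from 25.7 to 11.5 TPM in WT cells, from 39.1 to 17.5 TPM in NOTCH1KO cells and from 26.2 to 7.76 TPM in NOTCH2KO cells. Its groups did not overlap, as for 3.51% of all genes in that direction, and the mean difference was -1.28 ± 0.189 (SE, adjusted p = 0.188 by limma). With coverage it was -0.55, and the ratio of coverage to FPKM of TAGLN ran from 0.246 to 0.499 over the 6 libraries. EDN1, which encodes endothelin 1 and belongs to the hypoxia list, went from 26.1 to 6.90, from 83.8 to 31.7 and from 74.8 to 55.4 TPM. CNN1 and AXL of the EMT and mesenchymal list were lower in each genotype, with mean differences of -0.76 and -0.72. ZEB2 of that list, a repressor of E-cadherin, differed by 0.71.

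The following genes were chosen after their values were seen, for large differences with an unadjusted p under 0.01. AMTN, an enamel matrix gene, went from 53.1 to 14.8, from 23.6 to 10.7 and from 7.80 to 4.12 TPM in WT, NOTCH1KO and NOTCH2KO cells. The chorionic gonadotropin β genes CGB, CGB5, CGB7 and CGB8, which are near-identical copies and may share reads, differed by -1.21, -1.32, -1.19 and -1.28. On the other side, KLF9, a factor that several hormones induce, went from 16.5 to 70.2, from 10.47 to 29.04 and from 11.6 to 20.1 TPM, a mean of 1.39 ± 0.246 (SE, adjusted p = 0.22 by limma). IGFBP1, which binds insulin-like growth factors, went from 2.50 to 12.2, from 1.19 to 4.55 and from 8.66 to 20.4 TPM. CMKLR1, the receptor for chemerin, went from 3.62 to 22.8, from 3.58 to 14.2 and from 1.88 to 3.32 TPM.

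With each of the 12 libraries left out in turn, the number of genes called changed most without the Jagged1 library of NOTCH2KO cells in DMSO. Without it, 27 genes were called higher and 15 lower by limma, against 2 and 0 with all 12 libraries, and leaving out any other single library gave between 2 and 3 higher and between 0 and 2 lower. Named after their values were seen, the genes called higher without it included VCAM1 (2.85, adjusted p = 0.0251), HEY1 (adjusted p = 0.0251), IL1R1 (2.09, 0.0354), KLF9 (1.72, 0.0251), TGFBR1 (1.52, 0.0355), CSF3 (1.56, 0.0457) and VSTM4 (1.75, 0.0143). EDN1 (-1.47, adjusted p = 0.0371) and AMTN (-1.44, 0.0354) were among those called lower. In that fit the Jagged1 culture was represented by the WT and NOTCH1KO libraries alone. The fit was singled out of the 12 because it gave the most calls. Its adjusted p-values are therefore selected and do not hold at their stated level. With all 4 NOTCH2KO libraries left out, 2 genes were called higher and 2 lower, in a fit that also had fewer degrees of freedom. There the adjusted p by limma was 0.0627 for VCAM1, 0.173 for HEY1 and 0.25 for IL1R1. What set these counts was not tested.

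For many of these genes the difference was smallest in NOTCH2KO cells. Among the 20 NF-κB and cytokine genes higher in every genotype, it was smallest in NOTCH2KO cells for 17, or 85%, and among the 4 HES and HEY genes for 3. Over all 3544 genes higher in every genotype it was smallest there for 1142, or 32.2%. Among the other lists with more than 5 genes higher in every genotype, this share ran from 12.5% to 66.7%. The lowest was the Notch machinery, and the WNT list was among the highest. The lists were written with earlier results of these data known. All these genes were read in the same NOTCH2KO libraries, so they are not independent observations. HES1, whose differences were 0.82, 0.62 and 0.69 in WT, NOTCH1KO and NOTCH2KO cells, was the exception among the HES and HEY genes. For EPAS1 the differences were 1.55, 1.06 and 0.78.

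When the plate difference itself was compared between genotypes (limma with 4 residual degrees of freedom), 0 genes passed for NOTCH1KO against WT, 0%, 0 for NOTCH2KO against WT, 0%, and 0 for NOTCH2KO against NOTCH1KO, 0%. At an unadjusted p under 0.05 there were 712, 648 and 803 genes, and the lowest adjusted p-values were 0.328, 0.0944 and 0.236. With 1 library per genotype and plate the intervals were wide. For HEY1 the difference in NOTCH2KO cells minus that in WT cells was -1.52 with a 95% interval from -3.72 to 0.68, for VCAM1 it was -1.88 with an interval from -4.83 to 1.08, and for HES1 it was -0.13 with an interval from -0.93 to 0.67. These intervals include both no difference and a loss of most of the WT response of HEY1 or VCAM1, so that neither equal nor unequal responses are shown.

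With DAPT, fewer genes shared a direction over the genotypes. Over all genes, 11.9% were higher on Jagged1 in every genotype under DAPT and 10% were lower. Of the NF-κB and cytokine genes, 7 of 28 were higher in every genotype under DAPT and 4 were lower, with a median of 0.08, and of the HES and HEY genes 2 of 5 were higher. HEY1 stood at 7.498 and 10.9 TPM in WT cells, 4.64 and 3.81 TPM in NOTCH1KO cells and 10.1 and 13.1 TPM in NOTCH2KO cells on Fc and Jagged1 with DAPT, a mean difference of 0.20 ± 0.395 (SE). HES1 kept part of its difference, at 23.9 and 31.8, 17.9 and 25.0, and 27.0 and 35.7 TPM, or 0.41 ± 0.121 (SE). EPAS1 stood at 15.2 and 19.5, 14.5 and 19.3, and 19.2 and 42.3 TPM, with a mean of 0.61 ± 0.224 (SE), the largest of the 3 being in NOTCH2KO cells.

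The difference without DAPT minus the difference with it was tested in the same fit, and the 2 differences have no library in common. It passed for 3 genes, 0.017%, and at an unadjusted p under 0.05 for 1000, a number that went to 1612 when the WT Fc library with DAPT was left out and to 332 without the pairing. The 3 were NPIPA2, NPIPA3 and the clone-named entry CTD-2210P15.2, which are entries listed at 0 in a whole culture. For HEY1 the difference of differences was 1.38 ± 0.559 (SE, adjusted p = 0.802 by limma), for EPAS1 0.52 ± 0.317 (0.802), for CSF3 1.78 ± 0.365 (0.765) and for TAGLN -1.23 ± 0.267 (0.801). None of these passed the test.

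**Figure D5:**
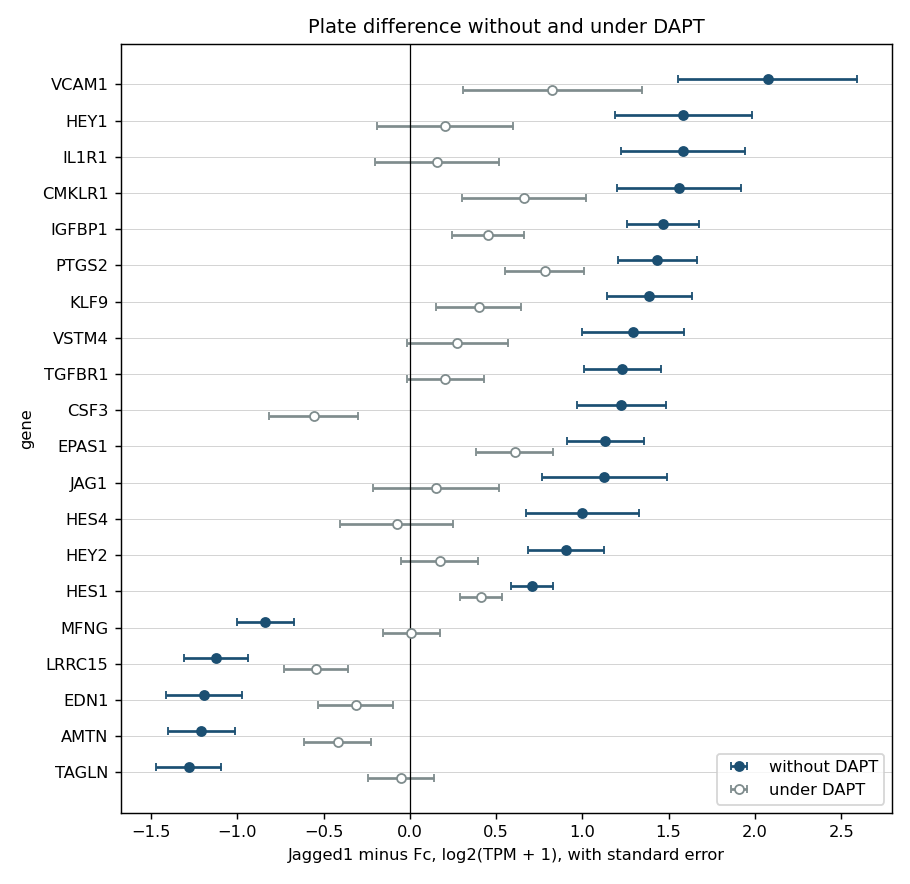
The mean difference of Jagged1 minus Fc on the log2(TPM + 1) scale (horizontal axis) is shown with its standard error for 20 genes (vertical axis), without DAPT (filled points) and under DAPT (open points), 3 libraries per plate in each case. For each gene the open point lies nearer to 0 than the filled point, and for CSF3, HES4 and MFNG it lies on the other side of 0. Most of these genes were chosen for a large difference without DAPT. A smaller difference in other libraries can follow from that choice alone, so the pattern is no test of DAPT.

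The entries NPIPA2 and NPIPA3, at positions 14841923 to 14859270 and 14802801 to 14820195 of chromosome 16 in GRCh37, were the only genes called. NPIPA2 was listed at 0 in all 3 Fc libraries without DAPT and at 8.02, 9.96 and 7.07 TPM in the WT, NOTCH1KO and NOTCH2KO libraries on Jagged1 (adjusted p = 1.87e-05 by limma). In a fit of the 6 libraries of the comparison alone, neither gene was called (adjusted p = 0.0966 for each). NPIPA3 was listed at 0 in the same 3 libraries and at 8.02, 9.42 and 7.01 TPM on Jagged1. Both stood between 6.77 and 10.45 TPM in the 6 DAPT libraries, so that they were at 0 in a single culture. The 8 NPIPA entries together, which are near-identical copies that can share reads, summed to 80.1, 84.9 and 69.3 TPM on Fc and to 90.2, 105.1 and 80.7 TPM on Jagged1.

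Other large differences also sat in entries that overlap another entry, and these were examined after their values were seen. PDXP was listed at 0 in the 3 Fc libraries, and in both NOTCH1KO libraries with DAPT, and stood at 32.8, 49.9 and 30.2 TPM on Jagged1, while SH3BP1, which overlaps it on the same strand of chromosome 22, went from 58.4 to 24.5, from 47.1 to 34.6 and from 45.9 to 21.9 TPM. Their sum was 58.4 and 57.3 TPM in WT cells, 47.1 and 84.5 TPM in NOTCH1KO cells and 45.9 and 52.1 TPM in NOTCH2KO cells. One HOXC4 entry went from 16.5 to 0.193, from 15.2 to 0.902 and from 16.6 to 2.10 TPM, and a second HOXC4 entry that overlaps its end on the same strand from 0.00895 to 22.3, from 5.505 to 15 and from 0.0127 to 16.7 TPM, with sums of 16.5 and 22.5, 20.7 and 15.9, and 16.6 and 18.8 TPM. The mitochondrial gene MT-ND4, which every cell uses, stood at 1.96 and 3022 TPM in WT cells, 2.04 and 1.74 TPM in NOTCH1KO cells and 3488 and 1.79 TPM in NOTCH2KO cells, and ACTG1, a cytoskeletal actin, went from 3138 to 293.1, from 2806 to 643.2 and from 1332 to 483.3 TPM. For MT-ND4 and ACTG1 no overlapping entry or copy was examined. The sources used here do not say how reads were divided between overlapping entries or copies, and the part of that division in these values was not tested.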

How the data were processed

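RNA of DAOY cells was made into stranded poly-A libraries and sequenced single-end, with bcl2fastq 2.17, CASAVA and GRCh37 in the submitters' processing notes. Aligner, quantifier, annotation and strand setting are not given in the sources used here. For each library, the authors deposited TPM, FPKM and coverage per gene. The authors scaled TPM by gene length and by library total, and FPKM was a fixed multiple of TPM within a library. Coverage was deposited as a read depth that is not scaled by library. The ratio of coverage to FPKM differs between genes, at 0.056 to 0.074 for EPAS1 and 0.933 to 1.08 for KLF9 in the 6 libraries. Coverage is therefore not the same measure of depth in every gene, and a low value alone does not show few reads. The largest ratio in a library was reached within 1% by 26.7% to 27.8% of genes above 1 TPM. With the read length it gave 18.3 to 22.4 M reads per library, an estimate. Entries were summed per gene identifier.

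Values were analysed as log2(TPM + 1) for the 17621 genes whose mean reached 1 TPM, in R 4.3.3 with limma 3.58.1, a mean-variance trend, additive genotype and culture terms over 12 libraries, 6 residual degrees of freedom (4 between genotypes), and Benjamini-Hochberg adjustment. The fold scale log2(TPM + 1) understates changes of low genes. Libraries were paired by cell line, and deviations of the paired libraries correlated at 0.328, 0.455 and 0.471 in WT, NOTCH1KO and NOTCH2KO. Nothing stated that libraries of a genotype came from separate cultures. No pair of the 66 was a duplicate. Scripts were tested on simulated data.

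The comparison, the 32 gene lists and the named genes were chosen with earlier results of these data known. Named genes were members of the Notch and study lists, the called genes and, for each other list, up to 4 members with the largest absolute difference, so that these too were picked by their values. Others are marked as chosen after their values were seen. Some results are not reported here.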

Additional observations from a re-analysis of the deposited data

Results flagged for a closer look

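The plate difference without DAPT minus that under DAPT passed the test (limma, adjusted p under 0.05) for 3 entries. It was 3.35 for NPIPA2 and 3.32 for NPIPA3 on the log2(TPM + 1) scale, and both were listed at 0 in the 3 Fc libraries with DMSO and in no other library. It was -2.65 for CTD-2210P15.2, which was listed at 0 in the 3 Fc libraries with DAPT and stood between 5.93 and 10.9 TPM in the other 9. These sizes depend on the pseudocount and are no bound on a fold change, and each entry was at 0 in the 3 libraries of 1 culture.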

How the results depend on the processing

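With all 12 libraries, 2 genes were called higher and 0 lower, and both counts were the same with a pseudocount of 0.1, a mean TPM of at least 5, FPKM, median-centred libraries, no replicate block, library weights, no mean-variance trend and a log2 difference over 0.5. With only the 6 libraries without DAPT, 0 were called higher and 0 lower, with 2001 genes at an unadjusted p under 0.05, and NPIPA2 and NPIPA3 had an adjusted p of 0.0966. Without a filter on low values 2 were called lower, and with coverage 1. Leaving out each library in turn gave 2 to 27 higher and 0 to 15 lower, the highest of both without the NOTCH2KO library on Jagged1 with DMSO, and otherwise at most 3 and 2. Without the WT, NOTCH1KO or NOTCH2KO libraries, 4, 4 and 2 were called higher and 3, 1 and 2 lower. For the plate difference without DAPT minus that with DAPT, 3 entries were called, 6 without a filter, 3 to 5 with a library left out (5 without the NOTCH1KO libraries on Fc with DMSO or on Jagged1 with DMSO or DAPT, or the NOTCH2KO library on Jagged1 with DAPT), and 3 with no replicate block. Without the pairing by genotype these counts stayed, while genes at an unadjusted p under 0.05 fell from 1901 to 583 and from 1000 to 332. That total of 1901 ran from 1096 to 2680 with a library left out, and was 3087 with coverage and 2997 with library weights. Between genotypes 0 genes were called in every setting that compared plate differences. A first coding, replaced after its counts were seen, set the Jagged1 library of a genotype against the mean of its other cultures and called 15 genes in each of the 3 comparisons, which is a different quantity. Among single named genes, the difference of NRARP turned to -0.0565 without the WT libraries and ran from -0.0498 to 0.3445 with a library left out, and that of LIF ran from -0.0505 to 0.1686. With coverage, EPAS1 moved from 1.13 to 0.40, IL1R1 from 1.58 to 0.39, CMKLR1 from 1.56 to 1.02 and TAGLN from -1.28 to -0.55. NOTCH3 ran from 0.57 to 2.46 with a library left out, and HES4 was 2.09 with a pseudocount of 0.1, 0.65 with FPKM and 0.59 without the NOTCH1KO libraries. The limits are 1 library per genotype and plate, values without counts, and entries that share reads.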
